A study of Mus musculus with 30 samples.

Results

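Thyroid RNA was compared between mice with Braf(V600E) and Arid1a knockout (Braf Arid1a KO) and mice with Braf(V600E) alone (Braf), all given the MEK inhibitor CH5126766, which the labels shorten to CKI. The comparison took Braf Arid1a KO libraries 2, 4 and 5 and Braf libraries 1, 4 and 5 on CKI, which are 6 of the 28 libraries analysed, and covered the 19016 expressed genes of the 33924 in the count table. The drug was dosed for 8 days and the mice were killed about 2 h after the last dose, so both groups share the Braf allele and the drug and differ in the Arid1a label. Set beside them were Braf Arid1a KO and Braf thyroids given vehicle, with 3 libraries each, and Braf Smarcb1 KO and Braf Arid2 KO thyroids given CKI, with 3 and 2 libraries. Untreated Arid1a KO and wild-type thyroids (Wildtype in the labels), with 3 libraries each, are given for a few genes. The labels used here give no age, strain or Cre driver, and do not state whether a library is 1 animal or a pool. They describe both RNA from frozen whole glands, for wild-type, Arid2 and Smarcb1 mice, and RNA from YFP-positive cells sorted out of dissociated glands. Both descriptions stand on every sample. Which of them applies to the Braf Arid1a KO and Braf libraries is not stated. A difference in preparation between these groups could not be told apart from the knockout.

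Braf V600E holds the kinase BRAF in an active state and drives the MAPK cascade through MEK and ERK, and in thyroid follicular cells sustained MAPK signalling is known to silence the genes of iodide uptake and hormone synthesis. MEK inhibitors are used to bring those genes back. Arid1a encodes the ARID-domain subunit that defines the canonical BAF form of the SWI/SNF chromatin remodeller, which slides and evicts nucleosomes at enhancers and promoters. Arid2 defines the PBAF form, and Smarcb1 is a core subunit of both. The comparison asks which genes differ with Arid1a loss once MEK is inhibited in both genotypes.

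Levels are in CPM (each library's counts divided by its TMM-scaled total, then set to a common scale) and are not corrected for gene length. A gene passed where its adjusted p was under 0.05 in edgeR's quasi-likelihood test, with Benjamini-Hochberg adjustment over the 19016 genes. These p-values measure the spread between libraries, which may be technical. The 6 libraries held 23958087 to 29830962 counts, and 6.48% to 11.1% of them came from the 10 genes with most counts in each library. Arid1a itself stood at 29.3, 28.4 and 19 CPM in Braf Arid1a KO on CKI and at 27.7, 22.9 and 36.9 CPM in Braf on CKI (log2 fold change -0.19, SE 0.42, adjusted p = 0.882). The groups overlapped, and counts over a whole gene take in exons outside a deleted part, so they do not check the label. Braf, Smarcb1 and Arid2 did not pass either (log2 fold changes 0.15, -0.33 and 0.74). Sex-linked genes were uneven between the groups. Xist, the X-inactivation transcript, stood at 216, 2.29 and 180 CPM in Braf Arid1a KO and at 0.195, 0.169 and 84.1 CPM in Braf, while Y-linked Ddx3y stood at 9.23, 92.6 and 0.0388 CPM in Braf Arid1a KO and at 117, 78.4 and 55.1 CPM in Braf. Knockout libraries 2 and 5 were thus high in Xist, and all Braf libraries were high in Ddx3y, library 5 together with Xist. With the Y-linked level as a covariate, an alternative chosen after these values were seen, 346 of the calls below were kept.

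On CKI, 195 genes were higher and 243 were lower in Braf Arid1a KO than in Braf. These 438 genes are 2.30% of those tested (1.03% higher and 1.28% lower), and the median over all genes was 0.01 on the log2 scale. The differences that passed were large. Of them, 131 were over 4-fold higher, 173 over 4-fold lower and 6 under 2-fold in either direction, and on counts simulated from these libraries the test recovered 69% of 4-fold and 5% of 2-fold changes. In 435 of the 438 genes the 3 libraries of each group did not overlap, against 22.0% of all genes. The count moved with the libraries: it was 160, 289 or 566 without Braf Arid1a KO library 2, 4 or 5, and 174, 254 or 168 without Braf library 1, 4 or 5. It was 138 with only these 6 libraries in the fit and 1125 with DESeq2.

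**Figure D1:**
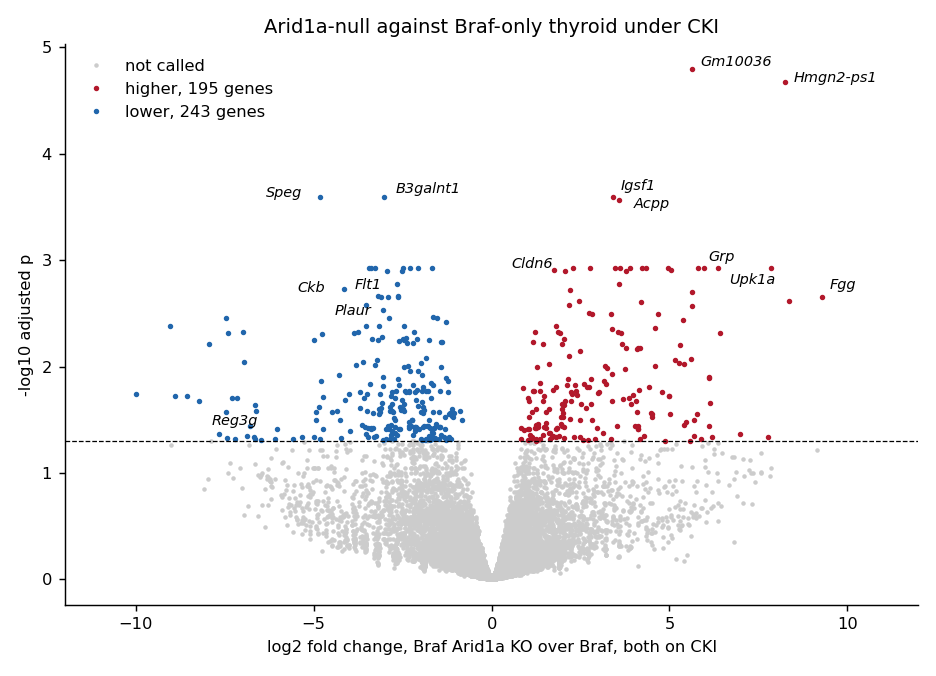
Log2 fold change of Braf Arid1a KO over Braf, both on CKI (x axis), against -log10 of the adjusted p (y axis) for 19016 genes, with the 0.05 threshold as a dashed line. The 195 higher genes are red and the 243 lower genes are blue, and the pseudogenes Hmgn2-ps1 and Gm10036 stand at the top.

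Among genes that averaged at least 5 CPM in the higher group, with no overlap, the 10 largest rises were of secreted, surface and carrier proteins that differ widely in function. Fgg, which encodes the fibrinogen gamma chain, stood at 122, 524 and 59.5 CPM in Braf Arid1a KO and at 0.779, 0.126 and 0.172 CPM in Braf (log2 fold change 9.30, SE 1.56, adjusted p = 0.0022). Every knockout library lay far above every Braf library. The partners of Fgg in fibrinogen, named after their values were seen, had few counts. Fgb had 0, 30 and 0 counts and Fga 0, 7 and 9 counts in the Braf Arid1a KO libraries and 0 in all Braf libraries. Fgg itself had 3617, 14660 and 1534 counts in Braf Arid1a KO against 24, 3 and 5 in Braf. Crym, encoding the thyroid hormone-binding mu-crystallin, stood at 55, 34.5 and 16.2 CPM in Braf Arid1a KO against 0.422, 0.506 and 0.31 CPM in Braf (log2 fold change 6.41, adjusted p = 0.00487). Its groups did not overlap.

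A ligand and a receptor of the bombesin family were both among the rises. Grp, the gene of gastrin-releasing peptide, stood at 316, 187 and 335 CPM in Braf Arid1a KO and at 8.89, 3.29 and 2.82 CPM in Braf (log2 fold change 5.80, SE 0.87, adjusted p = 0.00118). Nmbr, encoding the neuromedin B receptor, stood at 17.7, 6.43 and 7.99 CPM in Braf Arid1a KO against 0.0325, 0.421 and 0.207 CPM in Braf (log2 fold change 5.62, SE 0.93, adjusted p = 0.002). Both genes were high in all 3 knockout libraries and low in all 3 Braf libraries. They differed in thyroids without Braf V600E: Grp ran from 41.4 to 116 CPM in untreated Arid1a KO and from 82.1 to 229 CPM in wild type, whereas Nmbr did not exceed 0.103 CPM in untreated Arid1a KO or 0.367 CPM in wild type.

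The other large rises were Upk1a, a uroplakin of urothelial membrane plaques (80.7 ± 73.7 CPM in Braf Arid1a KO against 0.971 ± 0.602 CPM in Braf, SD, n = 3 each), Gpr128, an adhesion receptor (28 ± 13.2 CPM in Braf Arid1a KO against 0.405 ± 0.352 CPM in Braf), and Cntn1, the adhesion molecule contactin 1 (119 ± 52.8 CPM in Braf Arid1a KO against 3.07 ± 3.21 CPM in Braf). Hpx, which encodes the haem carrier hemopexin, averaged 8.16 ± 6.64 CPM in Braf Arid1a KO against 0.189 ± 0.0634 CPM in Braf. Cst12, a cystatin gene (41 ± 25.8 CPM in Braf Arid1a KO against 0.815 ± 0.259 CPM in Braf), and Selenbp2, a selenium-binding protein gene (8.82 ± 4.5 CPM in Braf Arid1a KO against 0.266 ± 0.0349 CPM in Braf), belong to families of close copies that may share reads, which was not measured. The log2 fold changes of these 6 genes ran from 5.03 to 6.38. In a fit of only the compared groups, Cntn1 (adjusted p = 0.112) and Gpr128 (adjusted p = 0.0548) lost the call. Of the 10 largest rises, Gpr128 lost its call without Braf library 1 and Hpx without any library but Braf Arid1a KO library 5. The other 8 kept theirs whichever library was left out.

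Smaller but tighter rises were named after their values were seen. Igsf1, an immunoglobulin superfamily gene whose loss in humans causes central hypothyroidism, stood at 139, 94.3 and 131 CPM in Braf Arid1a KO and at 14.1, 6.95 and 12.8 CPM in Braf (log2 fold change 3.43, SE 0.43, adjusted p = 0.000255). The tight-junction gene Cldn6 stood at 244, 219 and 208 CPM in Braf Arid1a KO against 38.1, 48 and 50.6 CPM in Braf (log2 fold change 2.29, SE 0.34, adjusted p = 0.00118). Another claudin, Cldn10, averaged 319 ± 73.8 CPM in Braf Arid1a KO against 17.4 ± 6.06 CPM in Braf. In each of the 3 the groups were well apart. Acpp, an acid phosphatase gene (369 ± 179 CPM in Braf Arid1a KO against 30.6 ± 7.72 CPM in Braf), Col25a1, a membrane collagen gene (443 ± 205 CPM in Braf Arid1a KO against 36 ± 13.8 CPM in Braf), and Kng2, a kininogen gene (459 ± 166 CPM in Braf Arid1a KO against 43.5 ± 22.2 CPM in Braf), also rose (log2 fold changes 3.59, 3.62 and 3.40). Kng2 lost its call without Braf library 1 or 5.

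The smallest p-values of all belonged to a pair of pseudogene-type entries, which were named after their values were seen. Gm10036 stood at 29.1, 19 and 12.7 CPM in Braf Arid1a KO on CKI and at 0.195, 0.59 and 0.448 CPM in Braf on CKI (log2 fold change 5.63, SE 0.56, adjusted p = 1.61e-05). In all 9 libraries labelled Arid1a knockout, treated or not, it ran from 9.85 to 29.1 CPM, and in the 19 other libraries from 0.16 to 0.771 CPM. Hmgn2-ps1 stood at 27.6, 20.3 and 10.4 CPM in Braf Arid1a KO against 0.0974, 0.0843 and 0 CPM in Braf (log2 fold change 8.24, SE 0.86, adjusted p = 2.09e-05). It ran from 4.34 to 27.6 CPM over the same 9 libraries and from 7.18 to 26.2 CPM in the 6 libraries labelled Smarcb1 knockout, and did not exceed 3.16 CPM in the remaining 13. Both entries resemble other genes, so reads may be shared.

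**Figure D2:**
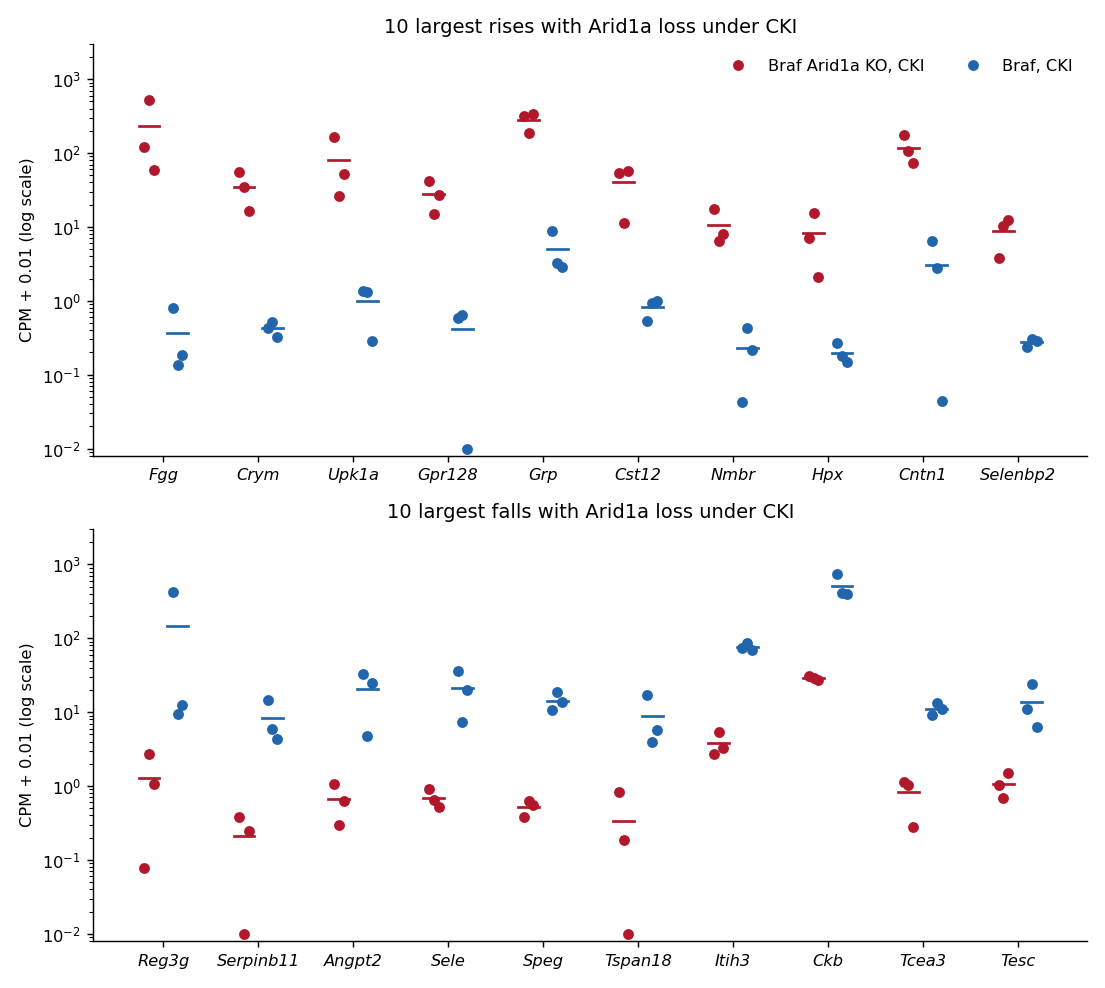
CPM + 0.01 on a log axis of the 10 largest rises (top) and 10 largest falls (bottom) in each library of Braf Arid1a KO (red) and Braf (blue) on CKI, with group means as bars. The groups do not overlap in any of the 20 genes, which the naming rule required.

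The 10 largest falls included genes known from endothelium. Sele, which encodes the leukocyte-binding E-selectin, stood at 0.913, 0.643 and 0.504 CPM in Braf Arid1a KO and at 36.6, 7.37 and 20 CPM in Braf (log2 fold change -4.94, SE 1.18, adjusted p = 0.0265). Angpt2, the gene of the TIE2 ligand angiopoietin 2, stood at 1.05, 0.286 and 0.621 CPM in Braf Arid1a KO against 32.4, 4.72 and 25.1 CPM in Braf (log2 fold change -4.98, SE 0.95, adjusted p = 0.00565). Both were low in every knockout library, and Braf library 4 was the lowest of its group in both. Tspan18, a tetraspanin gene, averaged 0.33 ± 0.427 CPM in Braf Arid1a KO against 8.99 ± 7.25 CPM in Braf. The endothelial transcription factor genes Sox7 (2.75 ± 0.821 CPM in Braf Arid1a KO against 33.4 ± 20.8 CPM in Braf) and Sox18 (0.996 ± 0.493 CPM in Braf Arid1a KO against 11.3 ± 3.69 CPM in Braf) and the Notch ligand gene Dll4 (1.16 ± 0.696 CPM in Braf Arid1a KO against 14.1 ± 7.75 CPM in Braf) also fell, and were named after their values were seen. Of these 6 genes, Angpt2 and Sox7 kept the call whichever library was left out. Angpt2 (adjusted p = 0.0548), Tspan18 (adjusted p = 0.125) and Dll4 (adjusted p = 0.0637) lost it in a fit of only the compared groups. None of the 6 kept it with the endothelial level as a covariate.

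Other falls included metabolic and secreted proteins. Ckb, the brain-type creatine kinase gene, stood at 30.7, 29.4 and 27.6 CPM in Braf Arid1a KO and at 740.1, 411 and 393 CPM in Braf (log2 fold change -4.14, SE 0.68, adjusted p = 0.00185). Speg, encoding a muscle-type protein kinase, stood at 0.372, 0.608 and 0.543 CPM in Braf Arid1a KO against 10.6, 18.7 and 13.8 CPM in Braf (log2 fold change -4.81, SE 0.61, adjusted p = 0.000255). Their libraries were tightly grouped and far apart. Tcea3, a transcription elongation factor gene (0.808 ± 0.466 CPM in Braf Arid1a KO against 11.1 ± 2 CPM in Braf), Tesc, a calcium-binding protein gene (1.07 ± 0.419 CPM in Braf Arid1a KO against 13.9 ± 9.31 CPM in Braf), and Itih3, encoding a heavy chain of inter-alpha-trypsin inhibitor (3.78 ± 1.4 CPM in Braf Arid1a KO against 76.9 ± 9.35 CPM in Braf), fell as well. Reg3g, the gene of an antimicrobial lectin, had the largest fall at this level and a wide spread, at 0.0676, 2.72 and 1.05 CPM in Braf Arid1a KO against 425, 9.31 and 12.5 CPM in Braf (log2 fold change -6.86, SE 1.80, adjusted p = 0.0451). Braf library 1 stood far above the others, and without it the log2 fold change was -3.09, no longer called. Serpinb11, a serine protease inhibitor gene, averaged 0.202 ± 0.188 CPM in Braf Arid1a KO against 8.29 ± 5.58 CPM in Braf. Reg3g and Serpinb11 have close copies that may share reads, which was not measured. Of the 6 fits that each left out 1 library, Serpinb11 and Itih3 kept the call in 0, Reg3g and Sele in 1, Tesc in 3 and Tspan18 in 4. In a fit of only the compared groups, Reg3g (adjusted p = 0.16), Serpinb11 (adjusted p = 0.0728) and Tesc (adjusted p = 0.0548) lost it.

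Plaur, B3galnt1 and Ptges were named after their values were seen. Plaur, encoding the urokinase receptor, stood at 19.9, 66.3 and 39.1 CPM in Braf Arid1a KO and at 432, 255 and 238 CPM in Braf (log2 fold change -2.89, SE 0.51, adjusted p = 0.00351). B3galnt1, a glycosyltransferase gene, stood at 2.23, 1.07 and 0.931 CPM in Braf Arid1a KO against 13.5, 12.1 and 8.78 CPM in Braf (log2 fold change -3.02, SE 0.38, adjusted p = 0.000255). Ptges, the gene of prostaglandin E synthase, stood at 3.99, 8.76 and 4.34 CPM in Braf Arid1a KO against 46.2, 46.6 and 38 CPM in Braf (log2 fold change -2.93, SE 0.46, adjusted p = 0.00127). No library of 1 group reached the range of the other, and all 3 calls held whichever library was left out. Plaur lost its call in a fit of only the compared groups (adjusted p = 0.0548).

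Promoters were read because AP-1 and ETS factors are known to act below the MAPK cascade on which the drug works. RefSeq promoters (build GRCm38.p6, 250 bases before to 50 after each gene start) matched 133 of the 195 higher genes, 158 of the 243 lower genes and 12087 of the 19016 tested. The letters TGANTCA, the AP-1 motif, read the same on both strands and stood in 4.51% of the higher genes (6 genes), 15.2% of the lower genes (24 genes) and 7.31% of all genes. The ETS motif CCGGAAG, searched on both strands, stood in 9.77% of the higher genes (13 genes), 3.8% of the lower genes (6 genes) and 16% of all genes. The letters of the 2 motifs cannot overlap. The numbers of promoters behind these shares were 170, 229 and 15378, since some genes have several, and the median number of CG dinucleotides in a promoter was 12 for higher genes, 13 for lower genes and 18 for all. These shares describe letters in a window, and neither their difference nor binding by a factor was tested. The 2 whole promoters below belong to named falls with the motif, Sele (chr1:164047984-164048283, plus strand) and Serpinb11 (chr1:107362064-107362363, plus strand), with TGANTCA in capitals.
Sele: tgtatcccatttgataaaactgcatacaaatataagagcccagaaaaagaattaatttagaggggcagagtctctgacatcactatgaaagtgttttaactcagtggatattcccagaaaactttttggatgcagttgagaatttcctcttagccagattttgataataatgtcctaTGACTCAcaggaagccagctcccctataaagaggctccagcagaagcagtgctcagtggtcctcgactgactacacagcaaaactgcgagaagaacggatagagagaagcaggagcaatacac
Serpinb11: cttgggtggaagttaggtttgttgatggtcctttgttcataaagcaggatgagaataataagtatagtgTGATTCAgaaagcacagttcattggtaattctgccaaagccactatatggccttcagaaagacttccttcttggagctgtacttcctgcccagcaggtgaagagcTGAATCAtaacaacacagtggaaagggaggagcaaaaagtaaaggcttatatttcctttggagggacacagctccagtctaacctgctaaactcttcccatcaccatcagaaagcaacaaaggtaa
In Sele the motif began 73 bases before the gene start, and Serpinb11 held 2 copies, the first starting at base -181. Shorter windows follow for 6 lower genes, named after their values were seen as those with the motif and the highest level in Braf on CKI, each with up to 10 bases on either side on the gene's strand. They lie in the promoters of Srxn1 (chr2:152105274-152105573, plus strand), Tnfrsf9 (chr4:150927749-150928048, plus strand), Plaur (chr7:24462233-24462532, plus strand), Cald1 (chr6:34709194-34709493, plus strand), Adssl1 (chr12:112619797-112620096, plus strand) and Kcnip3 (chr2:127522045-127522344, minus strand).
Srxn1: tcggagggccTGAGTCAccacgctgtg
Tnfrsf9: cctgctcagtTGAGTCAcaggtcctgt
Plaur: cccctggagcTGACTCActctttagca
Cald1: ttgatttctcTGAGTCAagcttataaa
Adssl1: tagggtgttcTGAGTCAtctgcttgcc
Kcnip3: gctaattggcTGACTCAataaaaaggg
Of these, Srxn1, encoding the antioxidant enzyme sulfiredoxin, averaged 69.3 CPM in Braf Arid1a KO and 365 CPM in Braf, and Tnfrsf9, the gene of the costimulatory receptor 4-1BB, 91.2 CPM in Braf Arid1a KO and 344 CPM in Braf. Cald1, Adssl1 and Kcnip3 had log2 fold changes of -1.27, -1.91 and -2.66.

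The thyroid differentiation genes, which check the labelled tissue, were expressed in both groups. Against 2.30% of all genes, none of the 16 passed in either direction. Their log2 fold changes ran from -2.45 to 1.03 with a median of 0.24, and 10 were positive. Tg, encoding thyroglobulin, stood at 27540, 20960 and 30120 CPM in Braf Arid1a KO and at 11540, 7268 and 19640 CPM in Braf (log2 fold change 1.03, SE 0.65, adjusted p = 0.483). Every knockout library lay above every Braf library for Tg, yet the test was not passed. Slc5a5, the sodium iodide symporter gene, stood at 68.4, 6.86 and 539 CPM in Braf Arid1a KO against 605, 186 and 171 CPM in Braf (log2 fold change -0.65, SE 0.99, adjusted p = 0.809). Its knockout libraries differed from each other by more than the groups did, and the log2 fold change was 0.20 without Braf library 1 and -3.09 without Braf Arid1a KO library 5. Pax8, a transcription factor gene of the lineage, averaged 752 ± 92.9 CPM in Braf Arid1a KO against 814 ± 199 CPM in Braf.

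In most of the remaining thyroid genes the groups overlapped as well. Tshr, the thyrotropin receptor gene, averaged 551 ± 244 CPM in Braf Arid1a KO and 412 ± 200 CPM in Braf, the deiodinase gene Dio1 134 ± 88.1 and 89.96 ± 48.4 CPM, and the transcription factor gene Nkx2-1 38.9 ± 18.4 and 26.8 ± 10.3 CPM. Duox1, encoding a dual oxidase that makes hydrogen peroxide for hormone synthesis, had the lowest log2 fold change of the list, with levels of 0.135, 1.5 and 0.388 CPM in Braf Arid1a KO against 3.02, 4.47 and 3.65 CPM in Braf (log2 fold change -2.45, SE 0.88, adjusted p = 0.154). Its groups did not overlap. The mean log2(CPM + 1) of the 16 genes ran from 4.83 to 5.75 in Braf Arid1a KO and from 4.97 to 5.55 in Braf. Of the 9 accessory genes of hormone synthesis 1 fell, against 1.28% of all genes. This was Kcnq1, a potassium channel subunit gene, at 3.52, 1.29 and 4.27 CPM in Braf Arid1a KO against 17, 18.4 and 19.6 CPM in Braf (log2 fold change -2.60, SE 0.66, adjusted p = 0.0385), with no overlap. It kept the call without 1 of the 6 libraries and lost it without each of the other 5. Kcnq1 also lost the call in a fit of only the compared groups (adjusted p = 0.0611).

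MAPK output genes did not pass either: 0 of 19, against 2.30% of all genes, with a median of -0.65 and 13 negative values. At that share, a list of this size can lack a call without differing from other genes. Dusp6, an ERK phosphatase gene, stood at 228, 526 and 701 CPM in Braf Arid1a KO and at 517, 453 and 425 CPM in Braf (log2 fold change 0.06, SE 0.44, adjusted p = 0.972). The knockout libraries spread on both sides of the Braf range. Spry4, which encodes a feedback inhibitor of receptor signalling, stood at 10.6, 12.5 and 20.4 CPM in Braf Arid1a KO against 38.6, 21.3 and 45.4 CPM in Braf (log2 fold change -1.28, adjusted p = 0.141), without overlap. The ETS factor gene Etv4 was on the other side, at 5.58, 9.97 and 3.96 CPM in Braf Arid1a KO against 3.12, 2.06 and 2.48 CPM in Braf (log2 fold change 1.35, adjusted p = 0.265), and Etv5 averaged 8.44 ± 5.25 CPM in Braf Arid1a KO against 16.6 ± 8.55 CPM in Braf (log2 fold change -0.98, adjusted p = 0.297). The list's median was -0.36 and -1.01 without Braf Arid1a KO libraries 2 and 5. Of the 26 genes of SWI/SNF subunits 0 passed (median -0.06), against the same share of all genes.

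**Figure D3:**
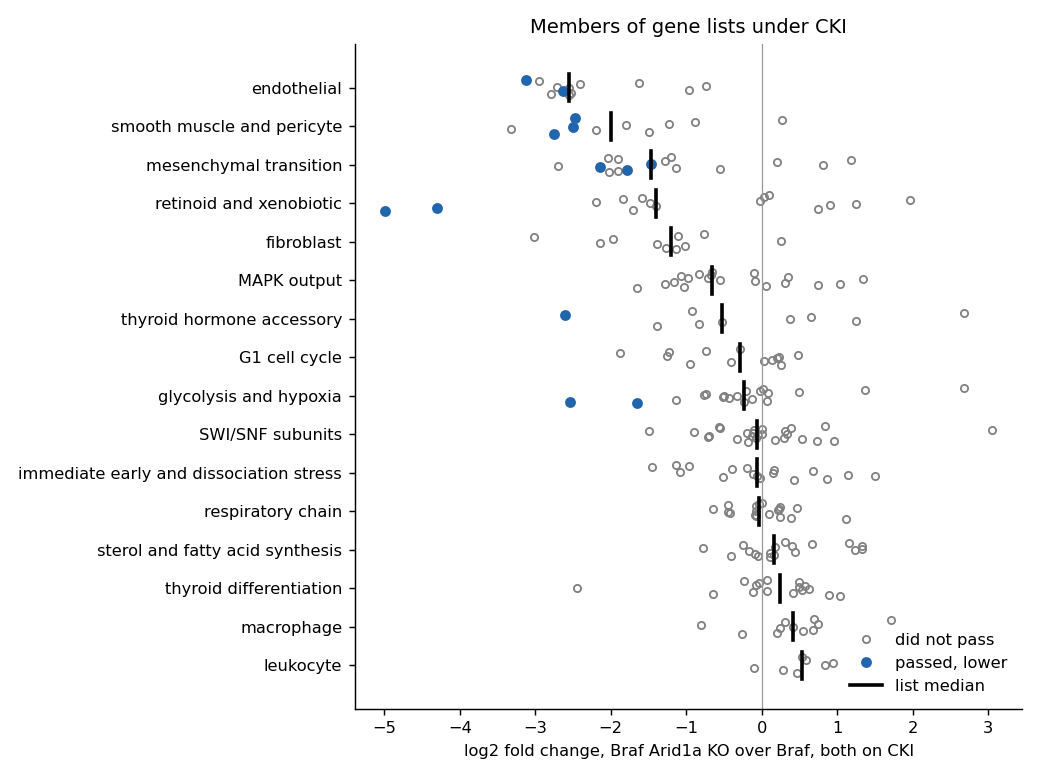
Log2 fold changes of Braf Arid1a KO over Braf on CKI (x axis) for the tested members of 16 gene lists (rows), with filled blue points for genes that passed, open points for those that did not and bars for list medians. The medians of the endothelial, smooth muscle and mesenchymal lists lie to the left of 0, and the thyroid differentiation list is spread around it.

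Of 12 endothelial markers 2 fell, against 1.28% of all genes. All 12 log2 fold changes were negative, with a median of -2.55. Flt1, a VEGF receptor gene, stood at 8.86, 8.29 and 9.08 CPM in Braf Arid1a KO and at 84.7, 34.3 and 43.2 CPM in Braf (log2 fold change -2.63, SE 0.44, adjusted p = 0.00218). Plvap, a gene of endothelial fenestrae, stood at 3.45, 3.22 and 3.8 CPM in Braf Arid1a KO against 57.6, 19.2 and 14.5 CPM in Braf (log2 fold change -3.12, SE 0.74, adjusted p = 0.0265). Neither gene's groups overlapped. No defining endothelial marker was at 0 in the knockout group: of those that did not pass, Pecam1 averaged 14.8 CPM in Braf Arid1a KO against 87.5 CPM in Braf, Cdh5 1.47 CPM in Braf Arid1a KO against 10.2 CPM in Braf and Kdr 10.8 CPM in Braf Arid1a KO against 62.2 CPM in Braf. Smaller falls were those of Vwf (3.52 CPM in Braf Arid1a KO against 5.85 CPM in Braf) and Tek (9.95 CPM in Braf Arid1a KO against 19.4 CPM in Braf). The groups overlapped in Vwf, Tek, Kdr, Tie1 and Esam, and not in the other 7 markers, against 22.0% of all genes without overlap. The summed level of the 12 markers ran from 58.8 to 138 CPM in Braf Arid1a KO and from 191 to 676 CPM in Braf. Fewer cells of a type and less RNA per cell cannot be told apart in such libraries. A sort for YFP-positive cells, which the labels describe, would remove cells without YFP, and these markers were detected in both groups.

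Lists of mural and mesenchymal genes were read beside them. Of 10 smooth muscle and pericyte markers 3 fell (median -2.0), against 1.28% of all genes. Mcam, a pericyte adhesion gene, stood at 24.7, 20.4 and 21.6 CPM in Braf Arid1a KO and at 105, 97 and 168 CPM in Braf (log2 fold change -2.47, SE 0.45, adjusted p = 0.00412). Acta2, smooth muscle actin, averaged 22.4 ± 19.7 CPM in Braf Arid1a KO against 150.2 ± 80.1 CPM in Braf, and Des, desmin, 2.62 ± 0.683 CPM in Braf Arid1a KO against 14.7 ± 4.63 CPM in Braf. Of 15 mesenchymal transition genes tested 3 fell (median -1.47): the repressor gene Zeb1 (7.18 ± 3.1 CPM in Braf Arid1a KO against 24.7 ± 8.31 CPM in Braf), the intermediate filament gene Vim (72.4 ± 34.9 CPM in Braf Arid1a KO against 321 ± 105 CPM in Braf) and the matrix gene Sparc (773 ± 257 CPM in Braf Arid1a KO against 2138 ± 577 CPM in Braf). Of 10 fibroblast markers 0 passed (median -1.20), and their summed level overlapped, at 378 to 3230 CPM in Braf Arid1a KO against 1530 to 7400 CPM in Braf. Flt1 and Mcam kept the call whichever library was left out, and the other called members of these lists did not. Of the 6 such fits, Plvap, Acta2, Des and Sparc kept it in 2, Vim in 1 and Zeb1 in 0. In a fit of only the compared groups, Plvap (adjusted p = 0.0637), Acta2 (0.135), Zeb1 (0.11), Vim (0.0772) and Sparc (0.0983) lost the call. Of 7 leukocyte markers 0 passed (median 0.53, summed level 146 to 393 CPM in Braf Arid1a KO against 153 to 293 CPM in Braf), and of 11 macrophage markers 0 passed (median 0.41). Among other cell types with 0 passed, the 8 erythroid markers were all negative (median -1.61). The median was -1.91 for cartilage and airway, -0.37 for T cell and 0.30 for neutrophil markers. The summed neutrophil level was 10.8 to 49.5 CPM in Braf Arid1a KO against 247 to 1310 CPM in Braf. Of all genes, 2.30% passed in either direction.

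The endothelial level did not overlap between the groups on CKI, at 2.12 to 3.15 in Braf Arid1a KO and 3.51 to 5.3 in Braf. A fit with this level cannot tell its effect from that of the genotype, so kept and lost calls do not decide between them. The level was added to the fit as a covariate, an alternative chosen after the levels were seen. Then 397 genes were higher and 159 lower, and 217 of the 438 calls were kept. Of the 10 largest falls, Speg, Ckb, Tcea3 and Tesc kept the call, and Angpt2 (log2 fold change -1.77, adjusted p = 0.167), Sele (-2.83, adjusted p = 0.184), Tspan18 (-2.49, adjusted p = 0.126), Itih3, Reg3g and Serpinb11 did not. Flt1, itself a marker in that level, kept it at -1.37 (adjusted p = 0.031), as did Slc2a1, and the other 12 called list members named in the text lost it. Among these, Mcam was at -1.51 (adjusted p = 0.05) and Plvap, also a marker in that level, at -1.26 (adjusted p = 0.337). Vim was at -1.23 (adjusted p = 0.232) and Acta2 at -1.25 (adjusted p = 0.238). Sox7 (-1.11, adjusted p = 0.146), Sox18 (-1.89, adjusted p = 0.199) and Dll4 (-1.26, adjusted p = 0.287) lost it too. Of the 10 largest rises, Fgg alone lost it (7.86, adjusted p = 0.0544). The median of the mesenchymal transition list was then -0.31 and that of the smooth muscle and pericyte list -0.31.

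**Figure D4:**
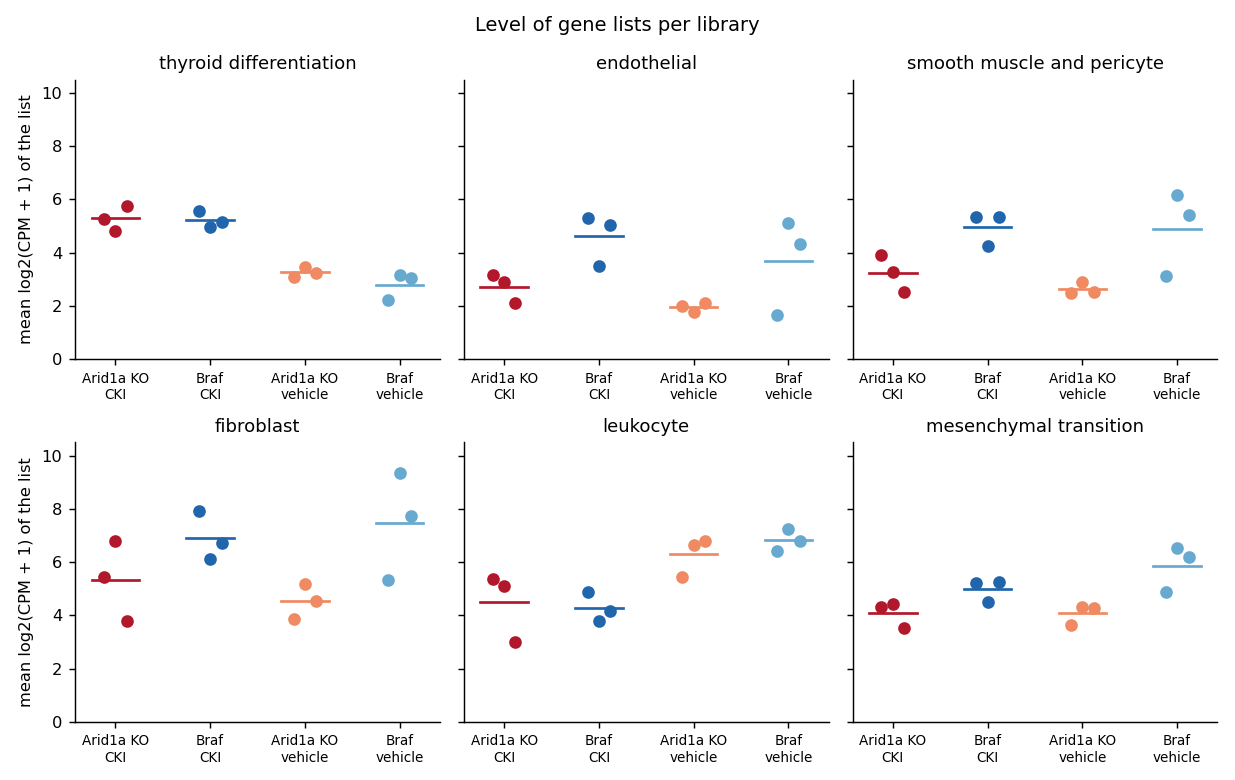
Mean log2(CPM + 1) of 6 gene lists (panels) in each library of Braf Arid1a KO and Braf with CKI and with vehicle, with group means as bars. On CKI the endothelial level is 2.12 to 3.15 in Braf Arid1a KO and 3.51 to 5.30 in Braf, while the thyroid differentiation levels overlap.

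Of the 39 gene lists, 7 had a called member and none had one that was higher. Beside those above, these were retinoid and xenobiotic genes, glycolysis and hypoxia genes and class I antigen presentation. Of 15 retinoid and xenobiotic genes 2 fell (median -1.40), against 1.28% of all genes: Cyp26a1, which encodes a retinoic acid hydroxylase, at 0.135, 0.179 and 0 CPM in Braf Arid1a KO and 5.58, 1.52 and 3.41 CPM in Braf (log2 fold change -4.99, adjusted p = 0.0459), and Rbp4, the gene of retinol-binding protein, at 0.169, 0.0715 and 0.0776 CPM in Braf Arid1a KO against 3.31, 1.85 and 1.38 CPM in Braf (log2 fold change -4.30, adjusted p = 0.0119). Both were near 0 in the knockout libraries and low in the Braf libraries. The median of this list was -0.68 and -0.84 without Braf libraries 1 and 5, and 0.23 with the endothelial level as a covariate. Of 19 glycolysis and hypoxia genes 2 fell, again against 1.28% of all genes. The glucose transporter genes Slc2a1 (109 ± 46.9 CPM in Braf Arid1a KO against 342 ± 70.4 CPM in Braf) and Slc2a3 (2.31 ± 1.82 CPM in Braf Arid1a KO against 13.5 ± 5.03 CPM in Braf) fell, and the list's median was -0.23. Of 9 class I antigen presentation genes 1 fell. This was B2m, the light chain of class I molecules, which stood at 573, 573 and 484 CPM in Braf Arid1a KO against 935, 1285 and 1328 CPM in Braf (log2 fold change -1.12, SE 0.27, adjusted p = 0.0292), without overlap. Of the 6 fits that each left out 1 library, Cyp26a1 kept the call in 0, B2m in 1, Slc2a3 in 2, Slc2a1 in 4 and Rbp4 in 5. A fit of only the compared groups kept Rbp4 (adjusted p = 0.0486) and lost the others (adjusted p = 0.0604 to 0.136). The 32 other lists had 0 of 421 tested members called, against 2.30% of all genes. Among them were cell cycle, Polycomb, TGF-beta, interferon, sterol synthesis, unfolded protein response and respiratory chain genes. These lists were grouped here for having no call, so the 0 follows from the grouping.

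The same genotype contrast was then read in the vehicle groups, which share no library with the CKI groups. With vehicle 808 genes were higher (4.25% of those tested) and 1010 lower (5.31%) in Braf Arid1a KO, together 9.56%. The count was 737, 1078 and 1012 without Braf Arid1a KO vehicle libraries 1, 2 and 3, and 948 without Braf vehicle library 4. Of the 195 genes higher on CKI, 120 were also called higher with vehicle (61.5% of the CKI list and 14.9% of the vehicle list), and 187 had a positive fold change there. Of the 243 lower genes, 145 were also called lower (59.7% and 14.4%), and 228 had a negative one. No gene was called in opposite directions. All 10 of the largest rises were called with vehicle. Grp stood at 83.6, 35.9 and 56.8 CPM in Braf Arid1a KO on vehicle against 0.459, 0.181 and 0.904 CPM in Braf on vehicle, and Fgg at 45, 72.9 and 105 CPM in Braf Arid1a KO against 0.968, 0 and 0 CPM in Braf. Of the 10 largest falls, 5 were called. Ckb was not (128 CPM in Braf Arid1a KO against 332 CPM in Braf on average; log2 fold change -1.37, adjusted p = 0.16), nor were Itih3, Reg3g, Serpinb11 and Tesc. Of 12 endothelial markers 7 were called lower with vehicle (median log2 fold change -3.27), against 5.31% of all genes. Of 10 smooth muscle and pericyte markers 8 were called lower (median -2.95), and of 10 fibroblast markers 9 (median -3.82). Of 15 mesenchymal transition genes 10 were called lower (median -2.40). None of these lists had a member called higher. In Braf library 2 on vehicle the endothelial level was 1.64, and in the other 2 Braf vehicle libraries it was 5.13 and 4.31. Angpt2 ran from 0.306 to 29.1 CPM in that group.

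**Figure D5:**
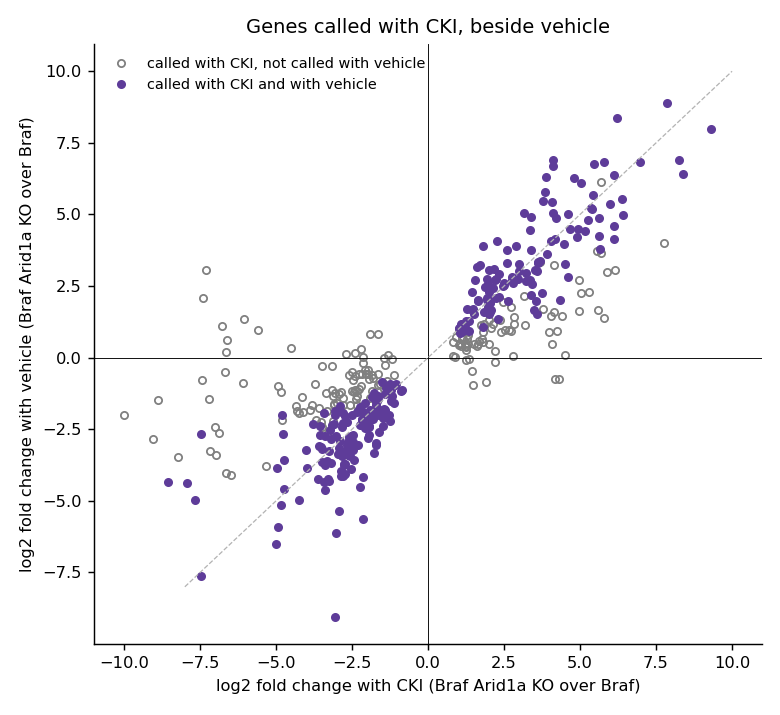
Log2 fold change of Braf Arid1a KO over Braf with vehicle (y axis) against that with CKI (x axis) for the 438 genes called with CKI, with equal values on the dashed line. Filled points were also called with vehicle, and no filled point lies in a quadrant of opposite sign.

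Whether the Arid1a effect differed between CKI and vehicle was tested as an interaction. Of 19016 genes 0 passed in edgeR (0%), 2018 had an unadjusted p under 0.05, and DESeq2 called 172. Without Braf Arid1a KO library 5 on CKI edgeR called 275. The 5 smallest p-values were those of Insc, Ppara, Tshr, Fbp2 and Dhrs3, and none of the 5 passed. Tshr stood at 148, 264 and 145 CPM in Braf Arid1a KO on vehicle against 14.5, 17.4 and 15.9 CPM in Braf on vehicle (log2 fold change 3.54, SE 0.44, adjusted p = 6.91e-05). On CKI its groups overlapped, at 832, 393 and 429 CPM in Braf Arid1a KO against 634, 248 and 353 CPM in Braf (log2 fold change 0.42, SE 0.40, adjusted p = 0.672). The difference between these effects was -3.12 (SE 0.58, adjusted p = 0.106). Ppara, encoding a nuclear receptor of fatty acid metabolism, and Dhrs3, a retinal reductase gene, were also called higher with vehicle and not on CKI, with differences of -3.26 and -1.67. Fbp2, a fructose bisphosphatase gene, was called higher with vehicle (log2 fold change 2.05) and was at -1.23 on CKI, a difference of -3.28. The adjusted p of the difference was 0.106 for each of these genes. Insc, a gene of spindle orientation, had 0 counts in the 3 Braf Arid1a KO libraries on CKI and 63 in the Braf libraries on CKI, at least 20.3-fold lower against a floor of 3 counts over the group (adjusted p = 0.00487), and the difference from vehicle had an adjusted p of 0.0917. The floor covers counting error only. In a fit of only the compared groups, Insc was not called on CKI (adjusted p = 0.0637).

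Last, Braf Arid1a KO was set against the other SWI/SNF knockouts on CKI. These comparisons use the same Braf Arid1a KO libraries as above, and because the labels tie frozen glands to Arid2 and Smarcb1 mice, knockout and preparation cannot be told apart in them. Against Braf Smarcb1 KO 2153 genes were higher (11.3% of those tested) and 2025 lower (10.6%), together 22.0%, and against Braf Arid2 KO, with 2 libraries, 475 were higher (2.50%) and 318 lower (1.67%), together 4.17%. The count against Braf Arid2 KO was 526 without Braf Arid1a KO library 2, and 101 and 156 without Braf Arid2 KO libraries 3 and 4. Grp, at 187 to 335 CPM in Braf Arid1a KO, stood at 2.76, 3.79 and 0.24 CPM in Braf Smarcb1 KO and at 1.65 and 1.25 CPM in Braf Arid2 KO (log2 fold changes 6.95 and 7.58, adjusted p = 1.34e-05 and 0.000656). Fgg, Crym, Upk1a and Nmbr were likewise low in both other knockouts, at no more than 5.29 CPM. Tg, at 20960 to 30120 CPM in Braf Arid1a KO, stood at 1884, 1901 and 1214 CPM in Braf Smarcb1 KO (log2 fold change 3.98, SE 0.73, adjusted p = 0.000436) and at 36320 and 62410 CPM in Braf Arid2 KO (log2 fold change -0.91, SE 0.71, adjusted p = 0.461). Tshr differed from Braf Smarcb1 KO in the same way (551 ± 244 CPM in Braf Arid1a KO against 13.1 ± 3.74 CPM in Braf Smarcb1 KO; log2 fold change 5.39, adjusted p = 1.41e-07). Ckb was lower than in Braf Arid2 KO (29.3 ± 1.55 CPM in Braf Arid1a KO against 327 and 206 CPM in Braf Arid2 KO; log2 fold change -3.18, adjusted p = 0.0085) and did not pass against Braf Smarcb1 KO (52.8, 84 and 92.3 CPM; log2 fold change -1.38, adjusted p = 0.109). Cldn6 was higher than in both, at 208 to 244 CPM in Braf Arid1a KO, 1.19 to 2.6 CPM in Braf Smarcb1 KO and 4.76 and 7.33 CPM in Braf Arid2 KO (log2 fold changes 6.77 and 5.21). The endothelial and mural list members Flt1, Plvap, Mcam, Acta2 and Des did not pass against either knockout. Flt1 was at -0.57 against Braf Smarcb1 KO and -0.99 against Braf Arid2 KO (adjusted p = 0.358 and 0.205). Of the other endothelial and mesenchymal genes named, Sele (-3.20), Tspan18 (-2.96), Zeb1 (-2.96), Vim (-5.34) and Sparc (-2.08) were lower than in Braf Smarcb1 KO. Angpt2 (-3.76) was lower than in Braf Arid2 KO.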

How the data were processed

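Read counts per gene, whole numbers as the authors deposited them, were used without change. The submitters' processing notes name STAR 2.4, HTSeq 0.6.1, DESeq2 and mm9, giving no role or order. The kit was TruSeq RNA, per the labels' protocols. Strand is not stated, so reads of overlapping or antisense genes cannot be told apart. Sample titles gave the groups. Of 30 labelled samples 28 were analysed here, which left 2 libraries in each Braf Arid2 KO group. The 28 libraries held 23879271 to 34400066 counts. Within the 2 CKI groups, pairs of libraries had a chi-square of 106 to 257 per degree of freedom, a spread beyond counting error. Each library was counted as a replicate, though this spread does not show that the libraries are separate animals.

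Genes passing filterByExpr were scaled by TMM (factors 0.961 to 1.06 in the 6 libraries) and fitted over all 28 libraries with a term per group in edgeR 4.0.16 (glmQLFit, glmQLFTest; R 4.3.3). The SE is the size of the log2 fold change over the square root of F. Benjamini-Hochberg adjustment ran over all genes tested, with a threshold of 0.05.

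The genes named were the 4 targeted ones, the 10 largest rises and 10 largest falls that passed, stood at 5 CPM or more on average where higher and had no overlap between groups, up to 4 called members per list by smallest p, the thyroid differentiation list, Dusp6, Spry4, Etv4 and Etv5, and the 5 smallest interaction p-values. Predicted genes, pseudogenes and antigen receptor segments were passed over for the largest changes. Of the thyroid list, 1 gene is counted in the list's values and not reported here by name. Any other gene is said to be named after its values were seen, apart from sex-linked genes and endothelial markers that did not pass. Members, lists and comparisons were chosen with earlier results of these data known.

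Alternatives were RLE size factors, no filter, at least 10 counts in at least 3 libraries, DESeq2 1.42.0, the compared groups alone, the replicate number as a block, each library left out, and a covariate, either the leukocyte or the stress level. Covariates for the endothelial and Y-linked levels were added after seeing the data. On simulated counts of 18611 genes, 200 of them changed, 2 unchanged genes were called. Promoters come from RefSeq, build GRCm38.p6, and the counts from mm9.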

Additional observations from a re-analysis of the deposited data

How the results depend on the processing

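The CKI comparison gave 437 calls with RLE size factors, 463 without a filter, 437 with at least 10 counts in at least 3 libraries, and 633, 319, 556 and 382 with the leukocyte, stress, endothelial or Y-linked level as a covariate. DESeq2 gave 1125, a fit of only the compared groups 138, and leaving out 1 library 160 to 566. The interaction gave 172 calls with DESeq2, 3 with the leukocyte level, 1 with the stress level, 1 without a filter, and 0 to 275 without 1 library. The vehicle comparison gave 2910 with DESeq2, 829 with only the compared groups and 737 to 1637 without 1 library. Against Braf Arid2 KO, DESeq2 gave 1993, the compared groups alone 301, the endothelial level 1507, and leaving out 1 library 101 to 768, where the lone Arid2 library is assumed to vary like the other groups. The replicate numbers 4 and 5 are shared between the groups. Deviations of same-numbered libraries had correlations of -0.10 and -0.27, and those of differently numbered ones ran from -0.14 to 0.19. So few pairs cannot tell whether a number marks something shared, which the labels do not say. With the replicate number as a block in the compared groups, the CKI comparison had 0 calls in edgeR (910 at an unadjusted p under 0.05) and that against Braf Smarcb1 KO 1067; for the vehicle and Braf Arid2 KO comparisons this block left no residual degrees of freedom.

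Of 1230 refitted values of named genes, 37 changed sign or came to 0 (Fgb), in 14 genes none of which had passed, and 198 lost the call. Another 4 gained a call: 1 each of the thyroid genes Duox1 and Thrb (Thrb with the endothelial level, adjusted p = 0.0198), and 2 of Fbp2. Under the block the log2 fold change was 0.071 for Dhrs3, 0.28 for Dio2, -0.035 for Glis3, 0.14 for Pax8 and 0.065 for Thra. For Dhrs3 it was 0.0062 with RLE, 0.0061 with DESeq2 and 0.0097 with at least 10 counts in 3 libraries. With the stress level it was 0.043 for Slc5a8 and 0.0996 for Thra, with the endothelial level 0.54 for Arid1a, 0.14 for Dhrs3, 1.15 for Dio2, 0.42 for Slc5a8 and 0.32 for Thra, and with the Y-linked level -0.052 for Dio1. Leaving out 1 library at a time gave log2 fold changes of Arid1a -0.34 to 0.016, Braf -0.026 to 0.32, Dhrs3 -0.092 to 0.064, Dio2 -0.52 to 0.25, Dusp6 -0.30 to 0.40, Fgb 0 to 6.96, Foxe1 -0.12 to 0.33, Glis3 -0.21 to 0.34, Pax8 -0.30 to 0.039, Slc5a5 -3.09 to 0.20, Slc5a8 -0.82 to 0.17, Thra -0.14 to 0.027 and Tshr -0.0034 to 0.88. The cause of these shifts was not tested. The spread between libraries, depth and 3 libraries a group limit what could pass. Few 2-fold changes were recovered in the simulation, so a gene that did not pass is not shown to be equal between the groups.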
